A study of Mus musculus with 2 samples.

Results

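Acta2, Tagln, Myh11, Cnn1, Myl9, Tpm1 and Tpm2 encode 7 proteins of the smooth muscle contractile apparatus, and they were taken by gene symbol from the 32285 genes counted in the spatial transcriptomes of 2 mouse livers. Each symbol matched 1 protein-coding gene. In build GRCm38 Acta2 lies at chr19:34241090-34255590, Myh11 at chr16:14194535-14291372, Myl9 at chr2:156775420-156781658 and Tpm2 at chr4:43514711-43523765, while Cnn1 (chr9:22099216-22109630), Tagln (chr9:45929619-45936058) and Tpm1 (chr9:67022590-67049406) share chromosome 9 without neighbouring each other. The livers came from male C57BL/6J mice, 5 weeks old at purchase and acclimated for 1 week, and 1 section of 10 µm was measured per group. The mouse labelled HFD received a 60% high-fat diet (D12492), a model of non-alcoholic fatty liver disease, for 14 weeks and then, still in the model group, 8 weeks of daily distilled water by mouth at 0.1 ml per 10 g body weight. The mouse labelled NCD belonged to the control group without the high-fat diet and received the same water. In both sections mRNA was captured on barcoded spots, each of which can cover parts of several cells, and molecules were counted by their unique molecular identifiers (UMIs).

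Smooth muscle of vessel walls contracts when myosin heads pull on actin filaments. Acta2 is the smooth muscle actin, Myh11 the smooth muscle myosin heavy chain and Myl9 a regulatory light chain of myosin. Tagln (transgelin) and Cnn1 (calponin) bind actin, and Tpm1 and Tpm2 are tropomyosins that lie along the actin filament and control access of myosin to it. In liver, Acta2 is also the usual marker of activated hepatic stellate cells and other myofibroblasts in fibrosis, whereas Myh11 and Cnn1 belong mainly to the muscle of arteries and portal veins. For that reason spots were divided by whether they held a UMI of Myh11 or Cnn1, and Acta2 was followed on both sides. Many of these genes are controlled through the CArG box, a DNA element bound by serum response factor.

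Over tissue, 29037988 UMIs were counted in 3692 NCD spots (median 4187.5 per spot) and 72118803 in 3594 HFD spots (median 18549). Under 1000 UMIs were found in 840 NCD spots and 4 HFD spots. Outside the tissue outline lay 1300 NCD spots with 19.1% of all UMIs of that capture area (median 3383 UMIs per spot) and 1398 HFD spots with 2.93% (median 1175.5). The labels name the cells as immune cells and hematopoietic stem cells, but the sections were liver: Alb reached 56011 UMIs per 1000000 UMIs of the section (CPM) in NCD and 57872 in HFD, and Apoa1 reached 7093 and 7584. With 1 section of 1 mouse per diet there was no replicate, so diet, animal and section cannot be told apart and no p-value is given. All intervals are exact 95% intervals and cover counting error only. UMIs are counted at the 3′ end of transcripts, so levels were compared between sections and spots and not ordered between genes.

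RefSeq upstream windows, the 250 bases before the annotated start in build GRCm38.p6, were held for 5 of the 7 genes: Acta2, Cnn1, Myl9, Tpm1 and Tpm2. They were searched on both strands for the CArG box, allowing at most 1 G or C among its 6 middle bases. Acta2 and Myl9 each held 2 such boxes, and these are printed because the element is known for its control of smooth muscle genes. The boxes are in capitals, with 10 bases on either side.
Acta2, chr19:34255438-34255467, minus strand: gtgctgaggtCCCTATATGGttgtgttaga
Acta2, chr19:34255388-34255417, minus strand: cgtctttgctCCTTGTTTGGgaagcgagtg
Myl9, chr2:156775293-156775322, plus strand: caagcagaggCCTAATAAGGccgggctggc
Myl9, chr2:156775355-156775384, plus strand: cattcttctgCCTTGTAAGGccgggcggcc
The Acta2 boxes lay 84 to 75 and 34 to 25 bases before the RefSeq start, inside the first exon of the longer GENCODE transcript Acta2-201. The Myl9 boxes lay 161 to 152 and 99 to 90 bases before the start, in no exon of the gene, and the first of them was the only perfect match among the 5 windows. No box was found in the windows of Cnn1, Tpm1 and Tpm2, which says only that these letters are not there. Of 32851 windows in the table, 8.59% held at least 1 such box, 0.670% held at least 2 and 1.47% held a perfect one. A match is a sequence description and not evidence of binding.

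The 7 genes together were higher in the HFD section, and the genes did not move alike. Acta2, Tagln, Cnn1, Myl9, Tpm1 and Tpm2 were at least 2-fold higher in CPM, while Myh11, the myosin motor of mature smooth muscle, had a log2 ratio of 0.31, or 0.76 as a mean of CPM per spot. The summed level was 57.4 CPM (54.7 to 60.3, 1668 UMIs) in NCD and 152 CPM (149 to 155, 10936 UMIs) in HFD, a log2 ratio of 1.40 (1.33 to 1.48). A gene was called higher when its log2 ratio was at least 1 with the interval above 0. By that rule 5 of the 6 genes other than Cnn1 were called, beside 9.30% of the 10665 genes with at least 200 UMIs, whose median log2 ratio was 0.23. Cnn1 was left out of this count because it passed the minimum only through its HFD level, and its ratio is a description. Fewer cells of a type and less RNA per cell cannot be told apart in such counts.

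Among the filament and motor genes, Acta2 had 263 UMIs in NCD (9.06 CPM, 7.995 to 10.2) and 2070 in HFD (28.7 CPM, 27.5 to 30.0), a log2 ratio of 1.66 (1.48 to 1.85). Myl9 had 186 and 1253 UMIs (6.41 and 17.4 CPM), a log2 ratio of 1.44 (1.22 to 1.67). Myh11 had 134 and 412 UMIs (4.61 and 5.71 CPM), and its log2 ratio was 0.31 (0.02 to 0.60). The actin and the light chain thus stood clearly above their NCD levels, and the interval of the heavy chain nearly reached 0.

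Among the actin-binding genes, Tagln went from 11.1 CPM (323 UMIs) to 30.1 CPM (2169 UMIs), a log2 ratio of 1.43 (1.27 to 1.61). Cnn1 had the fewest UMIs of the 7, 31 (1.07 CPM) in NCD and 305 (4.23 CPM) in HFD, and had the highest and least certain log2 ratio, 1.99 (1.45 to 2.57). Tpm1 went from 15.8 to 39.1 CPM, a log2 ratio of 1.31 (1.17 to 1.45), and Tpm2 from 9.40 to 26.5 CPM, a log2 ratio of 1.49 (1.31 to 1.68). The intervals of the 2 tropomyosin ratios overlapped.

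**Figure D1:**
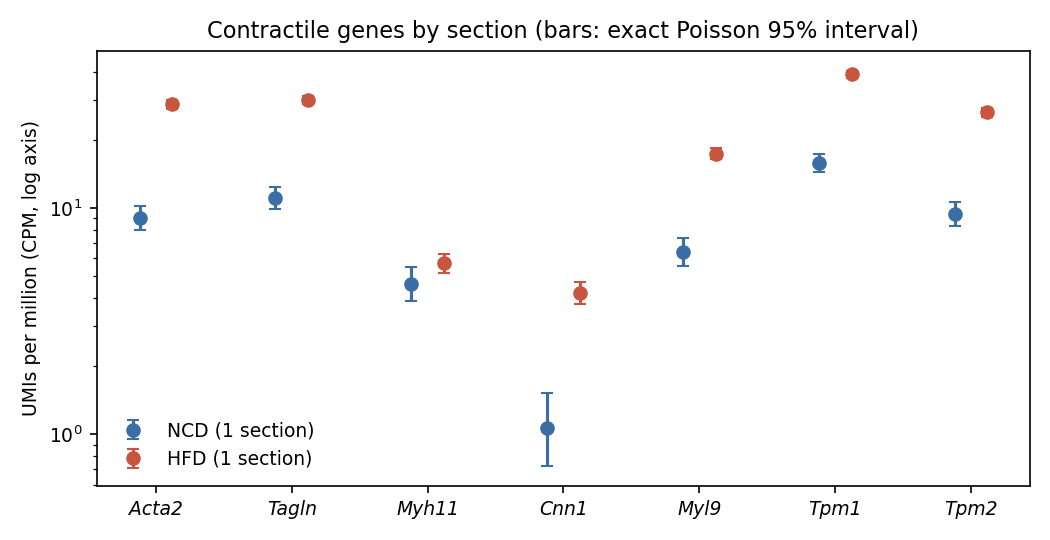
Level of each contractile gene in the NCD and the HFD section, as UMIs per 1000000 (CPM) on a log axis, with 1 point per section and exact Poisson 95% intervals. In 6 genes the 2 intervals lie well apart, whereas those of Myh11, 3.87 to 5.47 CPM in NCD and 5.17 to 6.29 CPM in HFD, overlap.

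The balance between the contractile genes therefore differed between the sections. For each Myh11 UMI there were 1.96 Acta2 UMIs (1.59 to 2.44) in NCD and 5.02 (4.52 to 5.60) in HFD. The same ratio for Cnn1 was 0.231 (0.151 to 0.344) and 0.740 (0.636 to 0.861). These intervals did not overlap. For each Tpm2 UMI there were 1.68 Tpm1 UMIs (1.44 to 1.96) in NCD and 1.47 (1.39 to 1.56) in HFD, which do overlap. When every spot was drawn down to 3000 UMIs, which left out 1585 NCD and 56 HFD spots, the log2 ratio of HFD to NCD was 1.51 (1.15 to 1.90) for Acta2, 0.11 (-0.52 to 0.77) for Myh11 and 2.71 (1.40 to 4.39) for Cnn1, the last from 5 and 55 UMIs.

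At full depth an Acta2 UMI was found in 141 NCD spots (3.82%) and 811 HFD spots (22.6%), and after drawing down to 3000 UMIs in 2.47% (1.85 to 3.22) and 5.88% (5.13 to 6.71) of the remaining spots. Outside the tissue an Acta2 UMI was found in 6.08% (4.84 to 7.52) of NCD spots and 2.65% (1.87 to 3.63) of HFD spots. The NCD share over tissue was thus below the share outside it, so that a single Acta2 UMI in an NCD spot was not read as expression there. The spots outside the tissue were not an even background, as the richest 1% of them in NCD held 37.8% of their Acta2 and 8.41% of their Alb UMIs. Acta2 was nevertheless uneven over the NCD tissue, from 1.503 CPM (0.841 to 2.48) to 78.6 CPM (67.2 to 91.4) between clusters of spots.

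At the unequal depth of the sections, a little over 56% of all Acta2 UMIs lay in spots with a UMI of Myh11 or Cnn1 in both, and at equal depth the NCD share was the lower one. Such spots, called Myh11/Cnn1 spots here, numbered 117 in NCD (3.17% of spots, with 5.91% of UMIs) and 334 in HFD (9.29% of spots, with 10.5% of UMIs). Outside the tissue such a UMI was found in 3.54% (2.60 to 4.69) of NCD spots and 0.9299% (0.496 to 1.58) of HFD spots, so that in NCD a single one was not read as vessel muscle in that spot. Over tissue they held 149 of 263 Acta2 UMIs in NCD, or 56.7% (50.4 to 62.7), and 1164 of 2070 in HFD, or 56.2% (54.1 to 58.4). The level of Acta2 was 86.9 CPM in NCD Myh11/Cnn1 spots and 4.17 CPM in the other NCD spots, a log2 ratio of 4.38 (4.02 to 4.74). In HFD it was 154 and 14.03 CPM, a log2 ratio of 3.46 (3.33 to 3.59). With these settings the intervals of the 2 shares overlapped and the contrast in level was larger in NCD.

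The remaining 43.3% and 43.8% of Acta2 UMIs lay in spots where neither Myh11 nor Cnn1 was detected, which is not the same as spots without muscle. Myh11/Cnn1 spots were deeper than the others, with a median of 12969 against 3959 UMIs in NCD and 20026 against 18399 in HFD. With each spot drawn down to 3000 UMIs before the division, only 35 NCD and 77 HFD spots kept a UMI of Myh11 or Cnn1, and the share of Acta2 in them was 20.3% (11.8 to 31.2) in NCD and 36.3% (31.3 to 41.6) in HFD. Dividing by Cnn1 alone also separated the shares, 18.3% (13.8 to 23.5) in NCD and 43.6% (41.4 to 45.7) in HFD, as did requiring at least 2 UMIs of both genes together, 19.4% (14.8 to 24.7) and 43.2% (41.1 to 45.4). The log2 ratio of levels at 3000 UMIs was 3.91 (2.99 to 4.75) and 4.68 (4.36 to 4.9996), so that the order of the 2 sections turned and the intervals overlapped. In 5 equal groups of HFD spots from the shallowest to the deepest, the log2 ratio was 4.29, 4.24, 4.34, 3.27 and 2.31.

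Acta2 UMIs were scattered thinly over many spots and piled up in few. Of the spots with an Acta2 UMI, 57 of 141 (40.4%) in NCD and 198 of 811 (24.4%) in HFD also held Myh11 or Cnn1. Among spots with 1 Acta2 UMI the proportion was 28.1% (19.1 to 38.6) in NCD and 11.0% (8.44 to 14.1) in HFD. Among spots with 5 or more Acta2 UMIs it was 12 of 14 (85.7%, 57.2 to 98.2) in NCD and 71 of 83 (85.5%, 76.1 to 92.3) in HFD. Most of the richest Acta2 spots were therefore Myh11/Cnn1 spots in both sections. The highest count in a spot with neither gene was 6 Acta2 UMIs in NCD and 15 in HFD, against 7 and 55 over all spots.

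**Figure D2:**
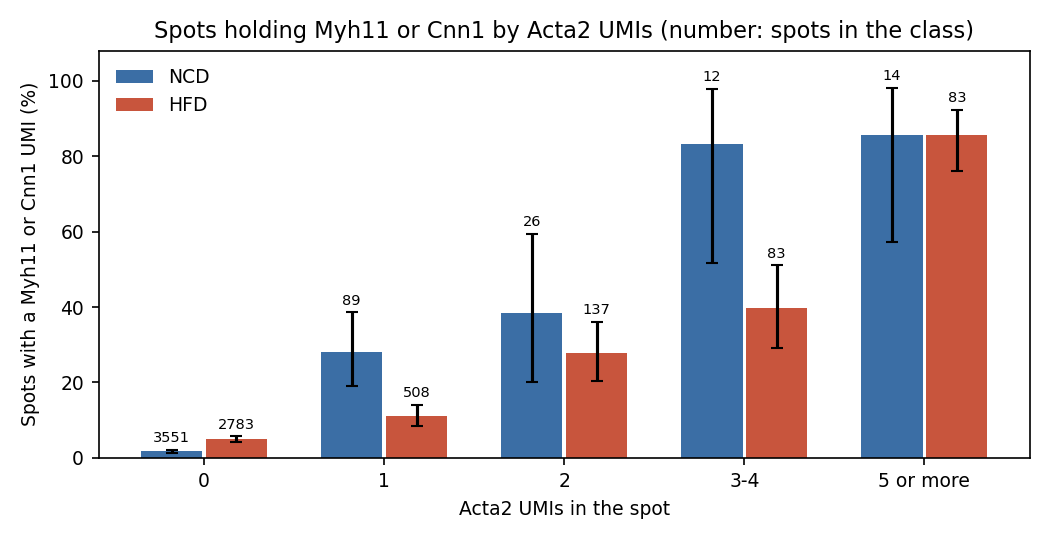
Percentage of spots with a UMI of Myh11 or Cnn1, by the number of Acta2 UMIs in the spot, in both sections, with exact 95% intervals; the number above each bar counts the spots. The percentage goes from 1.69% (NCD) and 4.89% (HFD) at 0 Acta2 UMIs to 85.7% and 85.5% at 5 or more.

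The other contractile genes split in 2 ways in the same division. Tagln and Myl9 followed Acta2. Tagln was at 84.5 CPM in Myh11/Cnn1 spots and 6.51 in the other spots of NCD, a log2 ratio of 3.70 (3.37 to 4.02), and at 126 and 18.9 CPM in HFD, a log2 ratio of 2.74 (2.62 to 2.86). Myl9 was at 39.6 and 4.32 CPM in NCD (3.20, 2.75 to 3.64) and at 83.0 and 9.71 CPM in HFD (3.10, 2.93 to 3.26). These spots held 44.9% and 43.8% of Tagln UMIs and 36.6% and 49.96% of Myl9 UMIs in NCD and HFD.

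The tropomyosins were far more widespread. Tpm1 was at 33.2 and 14.7 CPM in NCD, a log2 ratio of 1.18 (0.75 to 1.58), and at 67.9 and 35.7 CPM in HFD, a log2 ratio of 0.93 (0.79 to 1.07). Tpm2 was at 26.8 and 8.31 CPM in NCD (1.69, 1.20 to 2.15) and at 54.7 and 23.2 CPM in HFD (1.24, 1.08 to 1.40). Only 12.4% and 18.2% of Tpm1 UMIs and 16.8% and 21.6% of Tpm2 UMIs lay in Myh11/Cnn1 spots of NCD and HFD.

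Against all genes with at least 200 UMIs, few had such ratios. Called higher in Myh11/Cnn1 spots were 1.26% of 7039 genes in NCD and 1.54% of 10052 genes in HFD, with medians of -0.02 over all NCD genes and -0.003 over all HFD genes. In HFD all 5 members reached the minimum at the level of the other spots too, and Acta2, Myl9, Tagln and Tpm2 were called (ranks 6, 10, 14 and 107) while Tpm1 missed the limit. In NCD this held for Tpm1 and Tpm2, which were both called (ranks 71 and 30). Acta2 and Tagln passed the NCD minimum only through the spots where they were high (121 and 189 UMIs at the level of the other spots), so their NCD ratios are given without rank, and Myl9 was below the minimum. The 2 genes that divided the spots were set against each other: Cnn1 was at 5.19 CPM in spots with Myh11 and 0.867 without in NCD (log2 ratio 2.58, 1.12 to 3.84, from 31 UMIs), and at 34.7 and 1.51 CPM in HFD (4.52, 4.17 to 4.88).

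**Figure D3:**
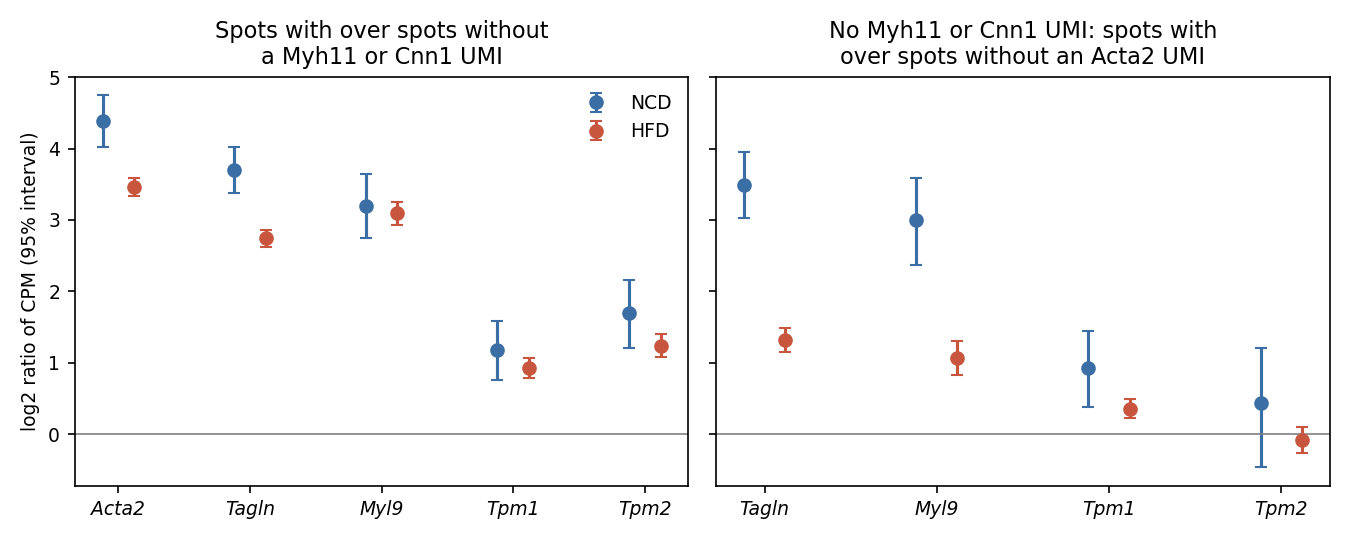
Log2 ratio of levels with 95% intervals in both sections. Left, spots with over spots without a UMI of Myh11 or Cnn1; right, among spots without either, those with over those without an Acta2 UMI. On the left Acta2, Tagln and Myl9 lie between 2.74 and 4.38 and both tropomyosins between 0.93 and 1.69, and Tpm2 is the gene whose intervals reach 0 on the right.

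The contractile genes shared their richest spots. Ranking spots of at least 1000 UMIs by the other 6 genes, the top 1% (29 NCD and 36 HFD spots) held 24.1% (19.1 to 29.8) of Acta2 UMIs in NCD and 30.1% (28.2 to 32.2) in HFD. The same spots held 0.622% and 0.646% of all UMIs. For Cnn1 the top 1% of HFD spots held 45.6% (39.9 to 51.3) and for Myh11 32.3% (27.8 to 37.0), but for Tpm1 only 5.01% (4.23 to 5.88) and for Tpm2 8.90% (7.66 to 10.3). All 7 genes were found together in 2 NCD and 44 HFD spots, and none of them in 2944 NCD and 815 HFD spots.

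Other genes of smooth muscle were higher in Myh11/Cnn1 spots, and their non-muscle relatives by less. Genes of lists were counted as higher or lower when they had at least 20 UMIs in the section and an interval off 0. Over all genes that rule gave 9.08% higher and 5.41% lower of 12076 in NCD and 14.3% higher and 9.42% lower of 13742 in HFD, with medians of 0.02 in both. In a list of 26 further smooth muscle genes, 14 of the 20 with at least 20 UMIs in NCD and 20 of 24 in HFD were higher in Myh11/Cnn1 spots. None was lower, and the medians of the log2 ratio were 1.38 and 1.10. Among the 14, Actg2 and Pdlim3 passed the NCD minimum only through Myh11/Cnn1 spots, with 11 and 14 UMIs elsewhere. Their NCD ratios are descriptions and add nothing to that count. Actg2, the enteric smooth muscle actin, was at 10.5 against 0.403 CPM in NCD (4.70, 3.54 to 5.93) and at 20.1 against 1.15 CPM in HFD (4.14, 3.73 to 4.56). Des, the muscle intermediate filament desmin, reached 2.03 (1.24 to 2.75) and 2.77 (2.52 to 3.03), and Flna, the actin cross-linker filamin A, 2.02 (1.62 to 2.40) and 1.81 (1.68 to 1.94). Cald1 (caldesmon) did not separate the spots, at -0.11 (-0.36 to 0.14) and 0.01 (-0.09 to 0.10). Of 13 cytoskeletal genes of non-muscle cells, 6 in NCD and 11 in HFD were higher, with medians of 0.24 and 0.36. Actb, the cytoplasmic actin, had ratios of 0.17 (0.08 to 0.25) and 0.35 (0.31 to 0.39).

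Among regulators of smooth muscle genes, 3 of 10 in NCD and 8 of 11 in HFD were higher in Myh11/Cnn1 spots. Notch3, a receptor of vascular muscle and pericytes, was at 8.74 against 1.32 CPM in NCD (2.73, 1.76 to 3.64) and at 9.01 against 1.95 CPM in HFD (2.21, 1.76 to 2.64). Srf, the factor that binds CArG boxes, was at 3.50 against 3.51 CPM in NCD (-0.01, -1.49 to 1.17) and at 7.82 against 5.79 in HFD (0.43, 0.01 to 0.83). Myocd, its muscle-specific partner, had 0 UMIs in NCD, which does not show that it was absent, and 2 UMIs in HFD. Of 10 striated muscle genes only Tnnt2, a troponin, reached 20 UMIs, with ratios of 3.83 (2.99 to 4.66) and 4.17 (3.71 to 4.64).

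The same spots carried genes of the portal tract. Of 11 portal fibroblast genes, all 8 with at least 20 UMIs in NCD and all 10 in HFD were higher, with medians of 2.71 and 2.36, led by Mgp at 115 against 11.1 CPM in NCD and 149 against 14.6 CPM in HFD. Of 16 matrix genes, 13 of 14 and 15 of 16 were higher (medians 1.79 and 1.18), and of 6 bile duct genes 4 of 5 and 6 of 6 (1.79 and 1.54). Of 8 vessel endothelium genes, 6 in NCD and 4 in HFD were higher (1.47 and 0.62), from Gja5, an arterial gap junction gene, at 3.83 (2.80 to 4.86) and 2.72 (1.80 to 3.62), to Cdh5, a junction gene of all endothelium, at 0.20 (-0.35 to 0.70) and -0.08 (-0.32 to 0.16). Haemoglobin genes were also higher there, with medians of 1.995 in NCD and 0.52 in HFD. Their part in the contractile gene values was not tested.

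Stellate cell genes did not follow as a group, though single ones did. Of 15 stellate cell genes, 3 were higher and 2 lower in NCD, and 3 higher and 3 lower in HFD, with medians of 0.09 and -0.11. The higher genes were Des, which stands in both lists, Pdgfrb and Dcn. Pdgfrb had ratios of 1.70 (0.91 to 2.43) in NCD and 1.06 (0.72 to 1.38) in HFD, and Dcn of 0.20 (0.03 to 0.36) and 0.13 (0.07 to 0.19). Lrat, the vitamin A esterifying enzyme of quiescent stellate cells, was at 5.83 against 9.66 CPM in NCD (-0.73, -1.81 to 0.17) and at 8.75 against 12.2 CPM in HFD (-0.48, -0.86 to -0.11). Of 7 sinusoidal endothelium genes, 2 were lower and none higher in NCD, and 4 were lower and 1 higher (Mmrn2) in HFD. Of 4 macrophage genes, 1 was lower in NCD and 2 in HFD, and none was higher.

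The 10 genes outside the 7 with the highest ratio, taking the lower of the 2 sections, were Ccl21a, Mgp, Mfap4, Sfrp1, Fmod, Fbln1, Dpep1, Gsn, Eln and S100a6. Ccl21a, a chemokine of lymphatic vessels, was first, with ratios of 3.36 (3.07 to 3.64) in NCD and 3.96 (3.77 to 4.15) in HFD. Mfap4, Fbln1, Fmod and Eln encode proteins of elastic fibres and the extracellular matrix, and their ratios lay between 2.41 and 3.36. Sfrp1, a secreted inhibitor of Wnt signalling, had ratios of 3.19 (2.46 to 3.88) and 3.91 (3.54 to 4.28).

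Spots with Acta2 but without Myh11 or Cnn1 were compared with spots lacking all 3 genes. There were 84 such spots in NCD and 613 in HFD, and 76.2% and 73.7% of them held a single Acta2 UMI. Because a single UMI was not read as expression in an NCD spot, the NCD values describe these spots only as a pooled group. They were deeper than the spots with none of the 3 genes, with a median of 12950 against 3793 UMIs in NCD and 22461 against 17502 in HFD. Tagln was at 49.7 against 4.41 CPM in NCD (log2 ratio 3.49, 3.03 to 3.95) and at 35.2 against 14.1 CPM in HFD (1.32, 1.15 to 1.48). Myl9 had log2 ratios of 2.996 (2.37 to 3.59) and 1.06 (0.82 to 1.299), Tpm1 of 0.93 (0.38 to 1.44) and 0.36 (0.22 to 0.49), and Tpm2 of 0.43 (-0.46 to 1.21) and -0.08 (-0.27 to 0.10). Tagln and Myl9 were thus higher in these spots as well, and Tpm2 could not be separated from 0. Of the 2 members with at least 200 UMIs in these NCD spots, Tpm1 and Tpm2, neither was called, beside 0.350% of 6858 genes with a median of -0.04. In HFD Tagln and Myl9 were called of the 4, beside 0.307% of 9773 genes with a median of -0.02.

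The spots with Acta2 alone also carried portal genes in both sections. The HFD section is given first. By the list rule 9.0% of 13741 genes (1237) were higher and 9.45% lower in HFD, with a median of -0.01. Of 10 portal fibroblast genes 8 were higher (median 1.10, against 2.36 in Myh11/Cnn1 spots), of 16 matrix genes 12 (0.66, against 1.18) and of 6 bile duct genes 6 (1.17, against 1.54). Col1a1, the main fibrillar collagen chain, was at 38.5 against 22.1 CPM (0.80, 0.65 to 0.95). Spp1, osteopontin, was at 291 against 132 CPM (1.14, 1.08 to 1.19), a ratio close to the 1.06 of Myh11/Cnn1 spots. Of 15 stellate cell genes 2 were higher and 5 lower (median -0.07), and Lrat was at 12.0 against 12.2 CPM (-0.02, -0.28 to 0.22). The higher ones were Des, at 0.81 (0.45 to 1.17), and Pdgfrb, at 0.35 (0.01 to 0.67). Actg2 and Lmod1, a leiomodin of smooth muscle, were higher as well, at 1.56 (0.85 to 2.25) and 1.83 (1.12 to 2.55), although neither gene had been used in the division. In NCD the medians were 1.78 for portal fibroblast, 1.26 for matrix, 1.04 for bile duct and -0.30 for stellate cell genes. Col1a1 was at 2.02 (1.25 to 2.73) there, from 20 UMIs in spots with Acta2 alone. Counts by the list rule are not given for NCD, where the share over all genes was not taken.

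At full depth the difference between the sections for Acta2 and Tagln was larger in spots without Myh11 or Cnn1. At equal depth this did not hold for Acta2, and for Tagln too few NCD UMIs were left to tell. The log2 ratio of HFD to NCD for Acta2 was 0.83 (0.58 to 1.08) in Myh11/Cnn1 spots and 1.75 (1.47 to 2.04) in the other spots, and for Tagln 0.58 (0.32 to 0.84) and 1.53 (1.31 to 1.77). For Myl9 it was 1.07 (0.70 to 1.45) and 1.17 (0.88 to 1.47), whose intervals overlap. With each spot drawn down to 3000 UMIs before the division, the order turned for Acta2. In Myh11/Cnn1 spots Acta2 went from 143 CPM (80.0 to 236, 15 UMIs) in NCD to 558 CPM (466 to 664) in HFD. In the other spots it went from 9.49 to 21.8 CPM. Tagln went from 171 CPM (102 to 271, 18 UMIs) in NCD to 398 CPM (321 to 488) in HFD in Myh11/Cnn1 spots. In the others Tagln went from 10.6 CPM (8.21 to 13.5) to 26.0 CPM (23.0 to 29.3). Because a UMI of Myh11 or Cnn1 was found more easily in the deeper HFD section, the 2 classes of spots are not the same in both sections.

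Spots of at least 1000 UMIs were sorted in each section from periportal to pericentral hepatocyte genes and cut into 3 zones of 950 or 951 NCD and 1196 or 1197 HFD spots. Acta2 had 103, 142 and 16 UMIs from the periportal to the pericentral zone of NCD, at 13.5, 13.6 and 1.52 CPM, and 1310, 541 and 219 UMIs in HFD, at 42.9, 26.8 and 10.2 CPM. The log2 ratio of the periportal to the pericentral zone was 3.16 (2.39 to 4.02) in NCD and 2.07 (1.86 to 2.28) in HFD. Between these end zones Tagln, Myh11, Cnn1 and Myl9 ran the same way in both sections, with log2 ratios from 1.38 to 3.15. Myl9 was highest in the middle zone of NCD, at 9.84 CPM against 7.49 in the periportal zone. The NCD ratio of Cnn1, 2.69 (0.85 to 5.13), rested on 3 pericentral UMIs. Tpm1 was level in NCD (0.01, -0.35 to 0.36) and slightly periportal in HFD (0.39).

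Tpm2 ran the other way. Its level was 5.52, 9.36 and 12.3 CPM from the periportal to the pericentral zone of NCD, and 19.8, 26.5 and 35.97 CPM in HFD, log2 ratios of -1.16 (-1.70 to -0.65) and -0.86 (-1.02 to -0.70). In spots without Myh11 or Cnn1 the log2 ratio of Tpm2 was -1.47 (-2.09 to -0.89) in NCD and -1.46 (-1.65 to -1.27) in HFD. There Acta2 kept its periportal side, at 2.28 (1.43 to 3.22) and 1.14 (0.88 to 1.40). Between the end zones Tpm2 thus ran opposite to Acta2, Tagln, Myh11, Cnn1 and Myl9 in both sections. Tpm2 was nevertheless higher with them in Myh11/Cnn1 spots.

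**Figure D4:**
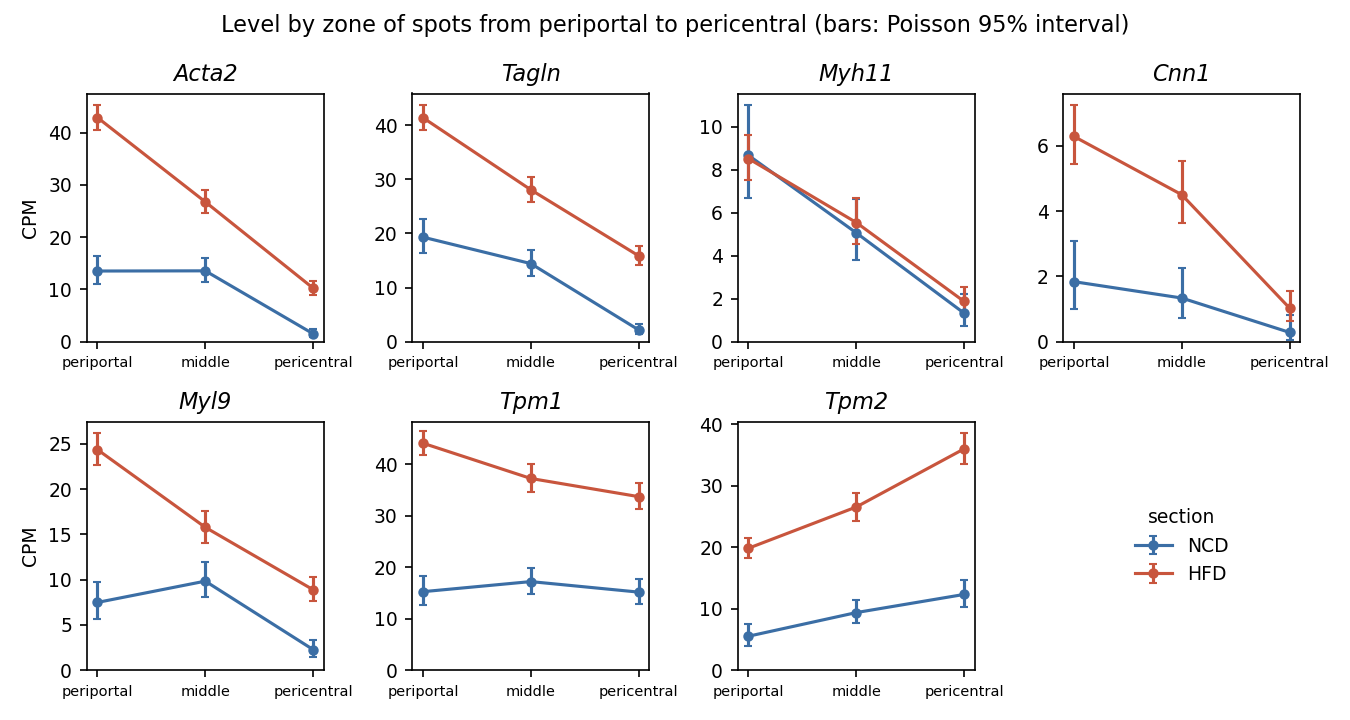
Level of each contractile gene in UMIs per 1000000 (CPM) in the 3 zones of spots sorted from periportal (left) to pericentral (right), with Poisson 95% intervals, for both sections. In HFD, Acta2, Tagln, Myh11, Cnn1 and Myl9 fall from left to right while Tpm2 climbs from 19.8 to 35.97 CPM.

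All members except Myh11 were higher in HFD in each zone, with intervals above 0. The log2 ratio of HFD to NCD for Acta2 was 1.67 (1.38 to 1.97) in the periportal, 0.98 (0.71 to 1.26) in the middle and 2.76 (2.03 to 3.59) in the pericentral zone, the last against 16 NCD UMIs. For Tagln it was 1.10 (0.85 to 1.36), 0.96 (0.70 to 1.23) and 2.86 (2.25 to 3.54). For Myh11 all 3 intervals held 0, with ratios of -0.03, 0.13 and 0.50. For Cnn1 the ratios were 1.77 (0.99 to 2.67), 1.75 (0.93 to 2.68) and 1.86 (0.12 to 4.24), against only 14, 14 and 3 NCD UMIs. For Myl9 the ratios were 1.70, 0.68 and 1.97, and for Tpm1 1.53, 1.11 and 1.15. For Tpm2 the ratios were 1.85 (1.39 to 2.33), 1.503 (1.19 to 1.83) and 1.55 (1.28 to 1.83), with overlapping intervals. Of Acta2 UMIs in the pericentral zone, 1 of 16 in NCD and 47 of 219 in HFD (21.5%, 16.2 to 27.5) lay in Myh11/Cnn1 spots, against 54 of 103 (52.4%, 42.4 to 62.4) and 844 of 1310 (64.4%, 61.8 to 67.0) in the periportal zone. These shares were not set to equal depth. The median UMIs per spot of the periportal and pericentral zones were 4629 and 7938.5 in NCD, and 24744 and 16805 in HFD.

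Clustering the spots of each section without the 7 genes and without the listed marker genes gave 7 clusters in NCD and 12 in HFD, and in both sections 1 cluster stood out for the contractile genes. In NCD it was cluster 4, with 163 spots, led by Iglc1, Ccl21a and Jchain, 64 of them Myh11/Cnn1 spots. It held 64.3% of Acta2, 63.5% of Tagln, 64.2% of Myh11 and 55.4% of Myl9 UMIs, but 21.8% of Tpm1 and 23.1% of Tpm2 UMIs. In HFD it was cluster 10, with 119 spots, led by Ccl21a, Sfrp1 and Dpep1, 81 of them Myh11/Cnn1 spots. It held 45.9% of Acta2, 34.8% of Tagln, 45.6% of Myh11, 63.9% of Cnn1 and 39.7% of Myl9 UMIs, and 11.2% of Tpm1 and 14.8% of Tpm2 UMIs.

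Acta2 was at 78.6 CPM in NCD cluster 4 and at 382 CPM (358 to 407) in HFD cluster 10. The next cluster for Acta2 in HFD was cluster 9, led by the epithelial genes Tff3, Tspan8 and Epcam, at 34.1 CPM (30.5 to 38.1). The lowest in NCD was cluster 6, led by the pericentral genes Cyp2c40, Slc1a2 and Glul, at 1.503 CPM. Tpm2 was second highest in the HFD cluster led by Slc1a2, Rhbg and Glul, at 42.1 CPM (37.6 to 47.1), where Acta2 was at 7.48 CPM (5.63 to 9.73).

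**Figure D5:**
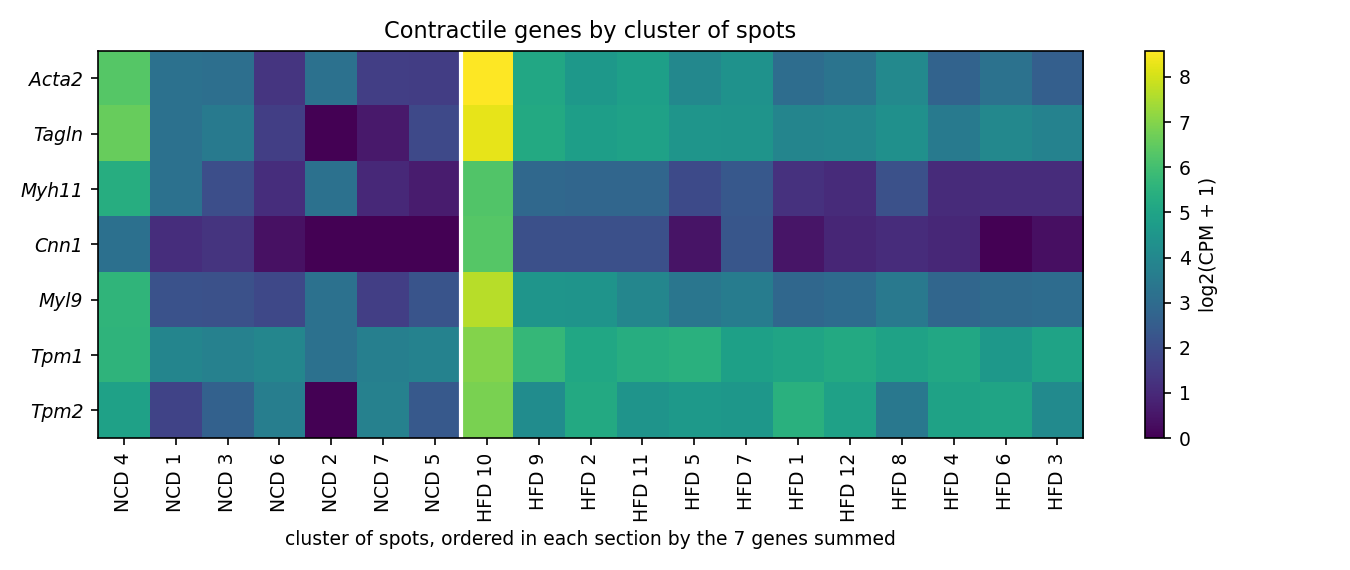
Level of the 7 genes as log2(CPM + 1) in each cluster of spots, ordered within each section by the 7 genes summed; the white line separates NCD from HFD. NCD cluster 4 and HFD cluster 10 are the brightest columns of their sections for all 7 genes, and Tpm1 and Tpm2 stay visible in most other clusters.

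Over the 19 clusters of both sections, centred within each section, the genes outside the 7 whose log2(CPM + 1) was most like that of the 7 genes summed were Sfrp1, Fbln1, Mfap4, Dpep1, Crip1, Ehd2, Ccl21a, Fmod, Tuba1a and Gsn, with Pearson r from 0.961 to 0.940 among 9808 genes. Each member against the other 6 summed had r of 0.929 for Myl9, 0.918 for Cnn1, 0.916 for Acta2, 0.901 for Tpm1, 0.888 for Myh11, 0.876 for Tagln and 0.498 for Tpm2. Clusters of 1 section share a library, and these values are descriptions with no test.

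Gene groups around the contractile genes also differed between the sections. Of all 12078 genes with at least 20 UMIs in NCD, 50.6% were higher in HFD with an interval off 0 and 18.4% lower, with a median log2 ratio of 0.22. Of the 20 further smooth muscle genes with that many, 19 were higher in HFD, 12 of them at least 2-fold, and 1 was lower, with a median of 1.11. In the same list, Lmod1 (16 UMIs in NCD) was at 2.06 (1.32 to 2.90), Actg2 at 1.65 (1.09 to 2.26) and Des at 1.12 (0.81 to 1.45). Matrix genes were higher in 14 of 14 (median 1.67), with Col1a1 at 5.68 CPM in NCD and 29.2 CPM in HFD (2.36, 2.13 to 2.60). Portal fibroblast genes were higher in 8 of 8 (1.44) and bile duct genes in 5 of 5 (1.17), and haemoglobin genes were lower in 4 of 4 (-2.45). Their part in the difference of the contractile genes was not tested. Stellate cell genes were higher in 10 of 15 and lower in 4, with a median of 0.34, and non-muscle cytoskeletal genes were higher in 12 of 13, with a median of 0.55.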

How the data were processed

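The deposited values were UMI counts per gene and spot, which the authors made with Space Ranger (the headers of the filtered matrices name spaceranger 1.3.1 and those of the raw ones Cell Ranger 4) on build mm10 per the submitters' processing notes; no normalization had been applied. Filtered matrices, which hold the spots over tissue, were used, and raw ones for spots outside it; both held the same counts for shared spots. Spot positions were not used here. A spot barcode marks a place on the slide, so the 3173 barcodes found in both sections are not shared cells, and no doublet caller was run.

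Counts were pooled over spots and divided by total UMIs (CPM, per 1000000). Levels have exact Poisson intervals, shares Clopper-Pearson intervals, and log2 ratios conditional binomial intervals, all at 95%. UMIs are single captured molecules, but the intervals leave out differences between animals and sections. With 1 section per diet, no test was possible. A gene was called at a log2 ratio of at least 1 with an interval above 0 and at least 200 UMIs; genes in lists needed 20 UMIs and an interval off 0, counted over all genes too. Zones were cut by log2 of pericentral over periportal UMIs (each plus 1; genes listed as Glul, Oat, Cyp1a2, Cyp2e1, Slc1a2, Rhbg and Cyp2f2, Sds, Hal, Gls2, Hsd17b13, Pck1). Spots were drawn down without replacement (seed 1). Clusters came from scanpy 1.11.5 (counts scaled to 10000, log1p, 2000 variable genes, 20 components, 15 neighbours, Leiden resolution 1, seed 0), leaving out 178 genes.

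Named genes outside the 7 were the 10 with the highest ratio of spots with to without Myh11 or Cnn1, taking the lower section, and the 10 most like the summed 7 genes over clusters, with at least 200 UMIs in HFD and 50 in NCD; listed marker genes could be named too. The members and lists were chosen with earlier results of these data known, and the comparisons of spots with Acta2 alone and of zones were added after seeing the data. The other lists gave, for NCD and HFD Myh11/Cnn1 spots, median log2 ratios of 0.14 and 0.75 (pericytes), 1.47 and 0.62 (vessel endothelium), -0.41 and -0.01 (central vein endothelium), 3.10 and 3.55 (lymph vessels), 1.24 and 0.32 (platelets), -0.07 and 0.04 (hepatocytes), -0.45 and -0.98 (pericentral), and 0.36 and 0.29 (periportal); of 6 mesothelium genes 1 was measured (0.37 and 1.45). The functions were tested on simulated data. Python 3.11.15, numpy 2.4.6, scipy 1.17.1 and pandas 2.3.3 were used.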

Additional observations from a re-analysis of the deposited data

Results flagged for a closer look

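UMIs of the contractile genes were also found outside the tissue outline, in spots used above only for the shares of spots with a UMI. In the 1300 NCD spots there, Acta2 was at 18.5 CPM (127 UMIs) and Tagln at 17.9, above their levels of 9.06 and 11.1 over tissue. Myh11 was at 8.005, Cnn1 at 2.04, Myl9 at 10.8, Tpm1 at 15.4 and Tpm2 at 11.8 CPM. In the 1398 HFD spots outside the tissue, Acta2 was at 18.8 CPM (41 UMIs), Tagln at 21.1, Myh11 at 5.97, Cnn1 at 2.30, Myl9 at 12.9, Tpm1 at 20.2 and Tpm2 at 25.7 CPM. For Acta2 the log2 ratio of outside to over tissue was 1.03 (0.71 to 1.34) in NCD and -0.61 (-1.09 to -0.16) in HFD, opposite directions in single sections, and the difference was not tested. The richest 1% of NCD spots outside the tissue (13 spots) held 37.8% of the Acta2 UMIs found there, against 8.41% of the Alb UMIs. In NCD 46 of these spots held Myh11 or Cnn1, with 38.6% (30.1 to 47.6) of the Acta2 UMIs outside the tissue.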

How the results depend on the processing

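Of 100 alternatives to these results, 84 were log2 ratios, none of which changed sign, and 61 of all stayed within the interval of the reported value. The log2 ratio of HFD to NCD was 1.26 for the 7 genes summed and 1.38 for Acta2 with all spots of the capture area of at least 1000 UMIs; 1.29 and 1.92 with spots drawn to 300 UMIs; and 1.55 and 2.01 without the 1% of spots richest in the 7 genes. The sum was 1.57 as a mean of CPM per spot. The share of Acta2 UMIs depended on the division: in NCD and HFD it was 46.0% and 49.7% with Myh11 alone, 18.3% and 43.6% with Cnn1 alone, 19.4% and 43.2% with at least 2 UMIs of both genes together, 65.0% and 68.6% when Lmod1, Actg2 or Smtn also counted, 31.1% and 36.9% without the 1% of spots richest in Acta2, and 20.3% and 36.3% at 3000 UMIs. The log2 ratio of spots with to without was 3.88 in NCD with all capture-area spots, 3.91 and 4.68 at 3000 UMIs, 3.78 and 4.08 with Cnn1 alone, 4.46 in HFD with at least 2 UMIs, 3.9998 and 2.74 with the wider division, and 3.23 and 2.45 without the richest spots. Of 48 alternatives for the other 6 genes, 10 left the interval. Myh11 was at 0.76 as a mean of CPM per spot and between 0.11 and 0.41 otherwise. Its interval held 0 with all capture-area spots (-0.14 to 0.37), without mitochondrial genes in the total (-0.02 to 0.56), and at 300 and 3000 UMIs. With those settings the sign for Myh11 was not settled. The NCD contrast was below the HFD one at 3000 UMIs, with Cnn1 alone and with at least 2 UMIs (4.11 in NCD). No paired analysis was possible because each group has 1 section. Depth limits Cnn1 and Myh11 in NCD most, with 31 and 134 UMIs.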
